A study of Mus musculus with 6 samples.

Results

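The genes described here are 10 genes of the smooth muscle contractile apparatus, Acta2, Tagln, Myl9, Myh11, Cnn1, Actg2, Des, Tpm1, Tpm2 and Lmod1. They were picked by symbol among the 42625 gene symbols that the 6 count tables list between them, and all 10 were found in each table. The tables hold single-cell RNA-Seq of GFP-positive lung cells from Pdgfra-GFP mice (strain JAX# 007669; PDGFRa-EGFP in other labels), which express GFP where the fibroblast (FB) receptor gene Pdgfra is active. Per the methods the mice were male and 10 to 14 weeks old. Each library pooled the cells of 3 mice and was the only library of its condition, so no value below has a replicate and no test between conditions was possible.

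Lungs given 50 µl of PBS or bleomycin once by the oropharyngeal route were taken on day 14. The protocol gives this bleomycin dose as 2 U/kg and the treatment field of the same library as 4 U/kg. In the repetitive arm, mice received 3 weekly doses of 50 µl, each PBS or bleomycin, of which the first 2 bleomycin doses were 1 U/kg and the last was 0.5 U/kg, with harvest 2 weeks after the last dose. In the organoid arm, GFP-positive FBs of PBS-treated (normal) or bleomycin-treated (fibrogenic, 2 U/kg) mice were harvested on day 14 and grown for 2 weeks in Matrigel with tomato-positive type 2 alveolar epithelial cells (AEC2s), at 10 AEC2s to 1 FB by the labels, while the methods give more FBs than AEC2s. The AEC2 donors were SpcCreER mice whose tomato label had been induced with tamoxifen (2 injections of 1 mg/kg). Bleomycin injures the lung and is followed by fibrosis, and the arms ask how Pdgfra-positive FBs differ between normal and injured lung and in culture.

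Smooth muscle cells shorten when myosin filaments pull on filaments of smooth muscle actin, and the genes for the filaments and for the proteins that bind them are switched on together by serum response factor (SRF) with the cofactors MYOCD, MRTFA and MRTFB. The DNA element that SRF binds is the CArG box. Part of the same program is switched on in myofibroblasts, the contractile FBs of healing and fibrotic tissue, in which Acta2 is the marker used most. Mural cells (vascular smooth muscle and pericytes) carry the program as well, and a sort on GFP can bring some of them along.

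RefSeq start-site windows, from 250 bases before to 50 bases after the start of transcription (GRCm38.p6), were at hand for 7 of the 10 genes. The CArG box is CC, then 6 bases that are A or T, then GG, and reads as the same pattern on both strands. A full box stood in 1 of the 7 windows, that of Myl9, against 1.63% of all 32851 windows of this length. A box with exactly 1 of the 6 middle bases C or G, full boxes not counted, stood in 2 of the 7, Acta2 and Myl9, against 8.50% of all windows. The MCAT element CATTCC, searched on both strands, stood in 3 of the 7 windows (Acta2, Tpm1 and Lmod1) against 14.7%, and overlapped no box. These matches describe the letters and not binding. The windows of Acta2, the most used marker, and of Myl9, with the full box, are shown with all boxes in capitals, and that of Tpm1, the member with most molecules in lung FBs, is shown beside them. Acta2 lies on the minus strand at chr19:34255324-34255623, Myl9 on the plus strand at chr2:156775214-156775513 and Tpm1 on the minus strand at chr9:67049164-67049463.
Acta2: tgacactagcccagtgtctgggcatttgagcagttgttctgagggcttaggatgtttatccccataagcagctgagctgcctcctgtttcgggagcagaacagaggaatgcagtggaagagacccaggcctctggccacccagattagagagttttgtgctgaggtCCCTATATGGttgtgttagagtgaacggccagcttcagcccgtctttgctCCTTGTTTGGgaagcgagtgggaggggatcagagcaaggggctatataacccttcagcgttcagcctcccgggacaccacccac
Myl9: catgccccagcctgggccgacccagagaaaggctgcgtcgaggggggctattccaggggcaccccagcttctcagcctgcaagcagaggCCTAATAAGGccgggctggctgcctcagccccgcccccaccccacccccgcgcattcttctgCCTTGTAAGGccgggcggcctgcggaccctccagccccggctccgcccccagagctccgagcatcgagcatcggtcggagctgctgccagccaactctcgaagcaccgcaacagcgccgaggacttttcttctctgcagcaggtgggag
Tpm1: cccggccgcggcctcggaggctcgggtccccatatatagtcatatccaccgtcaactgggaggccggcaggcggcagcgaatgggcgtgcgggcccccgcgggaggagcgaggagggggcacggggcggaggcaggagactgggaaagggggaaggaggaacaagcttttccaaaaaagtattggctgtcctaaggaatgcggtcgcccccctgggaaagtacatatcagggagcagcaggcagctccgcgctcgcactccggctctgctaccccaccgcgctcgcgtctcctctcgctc
In Acta2 the boxes begin 84 and 34 bases before the start. In Myl9 the full box begins 161 bases and the other 99 bases before it.

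The libraries held between 1015 and 10737 barcodes and between 7201081 and 238618743 unique molecular identifiers (UMIs, each a counted RNA molecule). A barcode was called FB from 6 FB markers against epithelial, endothelial, immune and mesothelial markers, none of which is a member, which gave 912 FB barcodes after single PBS, 859 after single bleomycin, 5405 and 7683 in the repetitive arm, and 2374 and 4829 in the organoids with normal and fibrogenic FBs. Pdgfra stood at 291 to 594 counts per 1000000 UMIs (CPM) in lung FB barcodes and at 73.8 and 69.5 CPM in organoid FB barcodes, which also held the AEC2 transcript Sftpc at 3680 and 2130 CPM. The median depth of FB barcodes was low after repetitive bleomycin, at 3850 UMIs against 10509 after repetitive PBS. It was also low in the fibrogenic organoids, at 5798 against 47558.5 in the normal organoids. Their FB barcodes still summed to more UMIs (167912609 against 123152239), so many low barcodes stood beside deep ones. Libraries shared at most 30 barcode sequences. No barcode of any library was called mesothelial, so this class removed none. The paper describes mesothelial FBs among its lung clusters. Any such cells here were left among the FB or other barcodes, and their part in the levels was not tested. Barcodes with at least 2 of 14 mural markers (18, 24, 62, 341, 1 and 9 in the order above) were kept out of the FBs and are described on their own. Below, a level is the sum of a gene's UMIs over the barcodes named, in CPM, with an exact 95% Poisson interval that covers counting error only. UMIs count molecules and were not divided by gene length.

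Every member was higher in FBs after bleomycin than after PBS in both lung arms. The difference was within counting error for Lmod1 after the single dose, and 14.8-fold for Acta2, the largest on the log2 scale used below. In the organoids, FBs from either source held all members except Des at higher levels than any lung library. Tpm1, Tpm2, Tagln and Myl9 were present in FBs of each library, while Myh11, Cnn1, Actg2 and Lmod1 stood between 0 and 1.19 CPM in FBs of the PBS lungs.

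Acta2, smooth muscle alpha actin (chr19:34241090-34255590, minus strand, GRCm38), was at 26.0 CPM (22.1 to 30.3) in FBs after single PBS and at 385 CPM (373 to 397) after single bleomycin. Repetitive PBS gave 14.8 CPM (13.9 to 15.9) and repetitive bleomycin 123 CPM (120 to 126). Organoid FBs held 751 CPM (746 to 756) when normal and 1299 CPM (1293 to 1304) when fibrogenic. No pair of these 6 intervals overlapped, and the order from low to high was repetitive PBS, single PBS, repetitive bleomycin, single bleomycin, normal organoid and fibrogenic organoid.

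The level in immune barcodes was taken as a background for these levels. Whether their Acta2 UMIs came from free RNA or from FBs caught in the same barcode was not tested. Immune barcodes, which should lack Acta2, held 24.7 CPM (9.06 to 53.8, 47 barcodes) after single PBS, an interval that took in the FB level. They held 17.6 CPM after single bleomycin, 3.23 CPM after repetitive PBS and 20.9 CPM after repetitive bleomycin, all below the FBs of the same library.

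Actg2, smooth muscle gamma actin (chr6:83512905-83536265, minus strand), stood at 0.49 CPM in FBs of both PBS lungs, from 3 and 29 UMIs. After single bleomycin it was at 15.7 CPM (13.4 to 18.2), from 170 UMIs, and after repetitive bleomycin at 1.12 CPM (0.87 to 1.42). Organoid FBs held 19.2 CPM (18.42 to 19.98) and 34.5 CPM (33.6 to 35.4). As a ratio, though not as a difference in CPM, the single-dose bleomycin level was closer to both organoid levels than to that of repetitive bleomycin.

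Myh11, the smooth muscle myosin heavy chain (chr16:14194535-14291372, minus strand), had 0 UMIs in 912 FB barcodes after single PBS, with an upper limit of 0.603 CPM from the exact Poisson interval. It had 14 UMIs after single bleomycin, 1.29 CPM (0.71 to 2.17). The repetitive arm gave 1.07 CPM (0.82 to 1.37) and 3.10 CPM (2.67 to 3.58), and the organoids 5.65 CPM (5.24 to 6.09) and 11.6 CPM (11.1 to 12.1). Single bleomycin and repetitive PBS did not differ beyond their counting error.

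Myl9, a regulatory light chain of myosin (chr2:156775420-156781658, plus strand), was at 47.4 CPM (42.1 to 53.2) after single PBS and 73.6 CPM (68.6 to 78.9) after single bleomycin. In the repetitive arm it was at 19.3 CPM (18.2 to 20.5) and 37.0 CPM (35.5 to 38.6), and in organoid FBs at 93.1 CPM (91.4 to 94.8) and 165 CPM (163 to 167). The PBS level of the single-dose arm was above the bleomycin level of the repetitive arm.

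Among the proteins that bind actin, Tagln, or transgelin (chr9:45929619-45936058, minus strand), was at 120 CPM (111 to 129) and 479 CPM (466 to 492) in the single-dose arm. It was at 89.6 CPM (87.2 to 92.0) and 191 CPM (188 to 195) in the repetitive arm. Organoid FBs held 1292 CPM (1285 to 1298) and 1903 CPM (1897 to 1910), above all lung libraries.

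Cnn1, calponin 1, which binds actin and slows the myosin motor (chr9:22099216-22109630, plus strand), had 1 UMI after single PBS and 99 UMIs, 9.13 CPM (7.42 to 11.1), after single bleomycin. The repetitive arm held 6 and 38 UMIs, 0.10 and 0.63 CPM. Organoid FBs held 26.6 CPM (25.7 to 27.5) and 56.7 CPM (55.6 to 57.9). All 4 lung values stood below both organoid values. After single bleomycin 1 FB barcode held 47 of the 99 Cnn1 UMIs, and the 9 FB barcodes with the most held 83.8% of them and, for Actg2, 75.3%, so both levels rest on few barcodes.

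The tropomyosins lie along the actin filament and govern where myosin can bind. Tpm1 (chr9:67022590-67049406, minus strand) was at 243 CPM (231 to 256), 651 CPM (636 to 667), 255 CPM (251 to 259) and 524 CPM (519 to 530) in the lung libraries in the order above, and at 975 and 1201 CPM in organoid FBs. Tpm2 (chr4:43514711-43523765, minus strand) was at 85.0 CPM (77.8 to 92.6), 175 CPM (167 to 183), 70.3 CPM (68.2 to 72.5) and 130 CPM (127 to 132), and at 424 and 608 CPM in organoid FBs. For Tpm1 the 2 PBS libraries did not differ beyond their counting error.

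Lmod1, leiomodin 1, which starts new actin filaments in smooth muscle (chr1:135324807-135368065, plus strand), stood at 0.98 CPM (0.36 to 2.13), 1.38 CPM (0.77 to 2.28), 1.19 CPM (0.93 to 1.5) and 2.60 CPM (2.21 to 3.04) in the lung libraries. Of these only repetitive bleomycin was apart from its PBS library. Organoid FBs held 7.32 CPM (6.85 to 7.81) and 13.8 CPM (13.3 to 14.4).

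Des, desmin, the intermediate filament protein of muscle (chr1:75360329-75368579, plus strand), went the other way in culture. It was at 66.0 CPM (59.7 to 72.8) and 196 CPM (188 to 204) in the single-dose arm and at 41.6 CPM (40.0 to 43.3) and 67.5 CPM (65.4 to 69.6) in the repetitive arm. In organoid FBs it was at 21.7 CPM (20.9 to 22.6) and 19.0 CPM (18.3 to 19.6), below all 4 lung libraries.

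**Figure D1:**
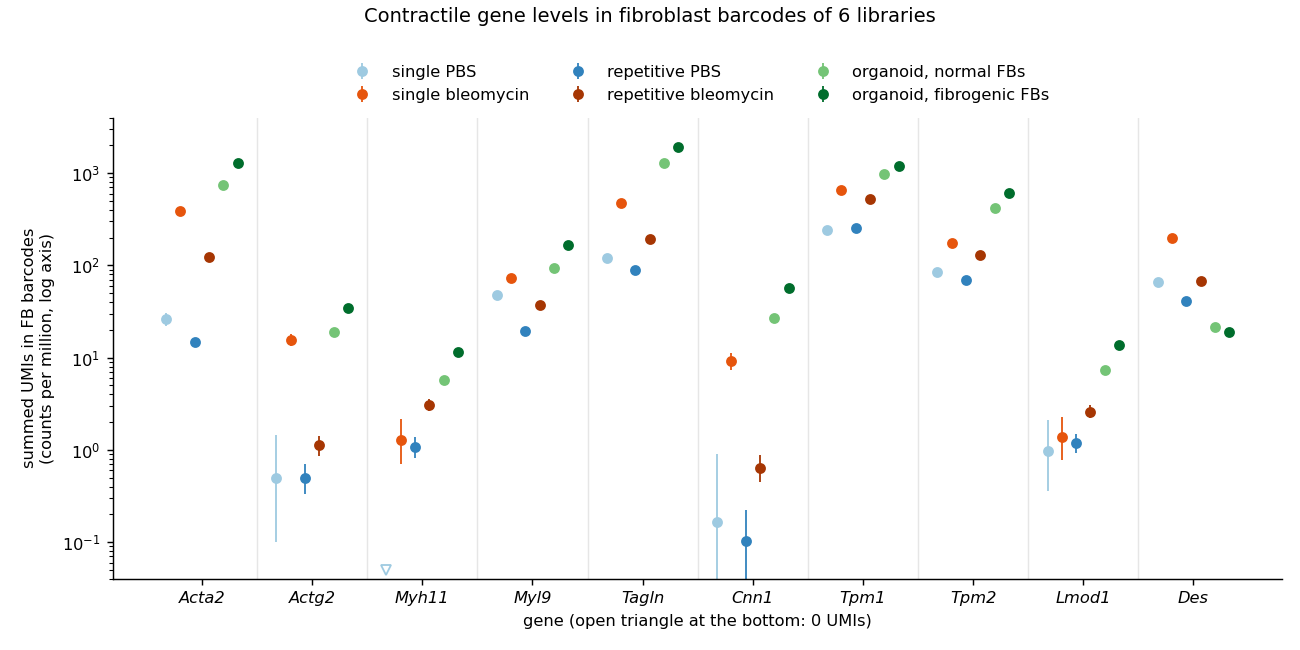
Level of each member in FB barcodes, as summed UMIs in CPM on a log axis, with 1 point per library and exact 95% Poisson intervals. Acta2 spans 14.8 to 1299 CPM, organoid points are the highest for 9 genes, and for Des they are the lowest, at 19.0 and 21.7 CPM.

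The first comparison asked how the members differed between bleomycin and PBS FBs after a single dose. Differences are log2 ratios of CPM after adding 1 CPM, and a gene was called past a 2-fold difference where it had at least 50 UMIs over both groups. Myh11 and Lmod1 had fewer, so 8 members were compared. Of these, 7 were past 2-fold higher, against 8.03% of all genes compared, and 0 were past 2-fold lower, against 3.57%. Here and below, shares of all genes were taken with the main settings only. Counts of members under other settings stand without such a share. The median log2 ratio of the 10 members was 1.49, and that of all 10805 genes compared was 0.08.

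Acta2 differed most, by 3.84 on the log2 scale, a 14.8-fold ratio with a counting interval of 12.6 to 17.5. Actg2 followed at 3.48 (32.0-fold in plain CPM, 10.8 to 157, on 3 UMIs in PBS) and Cnn1 at 3.12 (55.9-fold, 9.80 to 2229, on 1 UMI in PBS). Tagln was at 1.99 (4.00-fold, 3.70 to 4.33). The structural members came next, with Des at 1.56, Tpm1 at 1.42 and Tpm2 at 1.03. Myl9 was the member with enough UMIs that stayed under 2-fold, at 0.62 (1.55-fold, 1.36 to 1.78). Myh11 had 0 and 14 UMIs, at least 2.63-fold higher after bleomycin when counted against 3 UMIs over the PBS FBs, or 1.87-fold at the low end of its counting interval. With mural-marked barcodes kept its log2 ratio was -1.02, and with all barcodes -0.78. Keeping mural-marked barcodes also gave 2.42 for Acta2, 2.39 for Actg2, 1.67 for Tagln, 0.60 for Cnn1 and 0.29 for Myl9. The size of these ratios thus depends on the mural gate, while Des, Tpm1 and Tpm2 stayed within their counting intervals. The interval of Lmod1, 0.52- to 4.44-fold, held both directions.

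In the repetitive arm the same comparison had 9 members with enough UMIs, all but Cnn1. All 10 log2 ratios were above 0, but 3 of the 9 were past 2-fold higher, against 7.01% of all genes compared, and 0 were past 2-fold lower, against 1.8%. These were Acta2 at 2.97 (8.30-fold, 7.73 to 8.91), Tagln at 1.08 (2.13-fold, 2.06 to 2.20) and Tpm1 at 1.04 (2.06-fold, 2.02 to 2.10). Just under the line were Myh11 at 0.99, Myl9 at 0.91 and Tpm2 at 0.87. Lmod1 was at 0.72, Des at 0.68, Cnn1 at 0.57 and Actg2 at 0.50. For the low genes the added 1 CPM lowers the ratio, and the plain ratios were 6.22-fold for Cnn1 (2.61 to 18.0, on 6 and 38 UMIs), 2.90-fold for Myh11 (2.17 to 3.92), 2.27-fold for Actg2 (1.45 to 3.64) and 2.19-fold for Lmod1 (1.64 to 2.94). In FBs with at least 5000 UMIs the log2 ratio was 0.087 for Myh11 and 0.21 for Cnn1, and in FBs with a Pdgfra UMI it was 0.65 and 0.37. With 0.1 CPM added in place of 1, 6 members were past 2-fold. The median of the 10 was 0.89, and that of all 15301 genes compared was 0.11. Centring the ratios on that median left 1 of the 9 past 2-fold, Acta2, and counting barcodes with mural markers among the FBs put 8 members past it.

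Set side by side, the log2 ratio was larger after the single dose for Acta2 (3.84 and 2.97), Tagln (1.99 and 1.08), Des (1.56 and 0.68), Actg2 (3.48 and 0.50) and Cnn1 (3.12 and 0.57), with smaller gaps for Tpm1 (1.42 and 1.04) and Tpm2 (1.03 and 0.87). It was larger after repetitive doses for Myl9 (0.62 and 0.91) and Lmod1 (0.27 and 0.72), and for Myh11 it was 1.20 and 0.99. The arms differ in dose, schedule and depth, each rests on 1 pair of libraries, and the difference between them was not tested.

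The third comparison asked whether FBs of PBS-treated and bleomycin-treated mice still differed after 2 weeks with AEC2s. In organoid FBs, 1 of the 10 members was past 2-fold higher with fibrogenic origin, against 0.251% of all genes compared, and 0 were past 2-fold lower, against 0.802%. It was Cnn1, at 1.07 (2.13-fold, 2.05 to 2.22). No member was past 2-fold with 10 CPM added, with the mean of single-barcode CPM or without the 2% of FBs with the most UMIs (0 in each), and 6 were with all barcodes summed. Myh11 was at 0.92, Lmod1 at 0.83, Myl9 and Actg2 at 0.82, Acta2 at 0.79 (1.73-fold, 1.72 to 1.74), Tagln at 0.56, Tpm2 at 0.52 and Tpm1 at 0.30. Des was lower, at -0.19 (0.87-fold, 0.83 to 0.92). The median of the members was 0.80 and that of all 16329 genes compared was -0.02 (9 members above 0, and few genes of any kind past 2-fold). With the mean of single-barcode CPM the median was 0.36, with Cnn1 at 0.54, Acta2 at 0.41, Lmod1 at 0.19, Tagln at 0.02 and Tpm1 at -0.01. In the fibrogenic organoids 1 FB barcode held 9497 of 218106 Acta2 and 690 of 3183 Des UMIs, and 1 held 1022 of 9527 Cnn1 UMIs. The narrow intervals cover counting only, and how far another culture would differ was not measured.

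**Figure D2:**
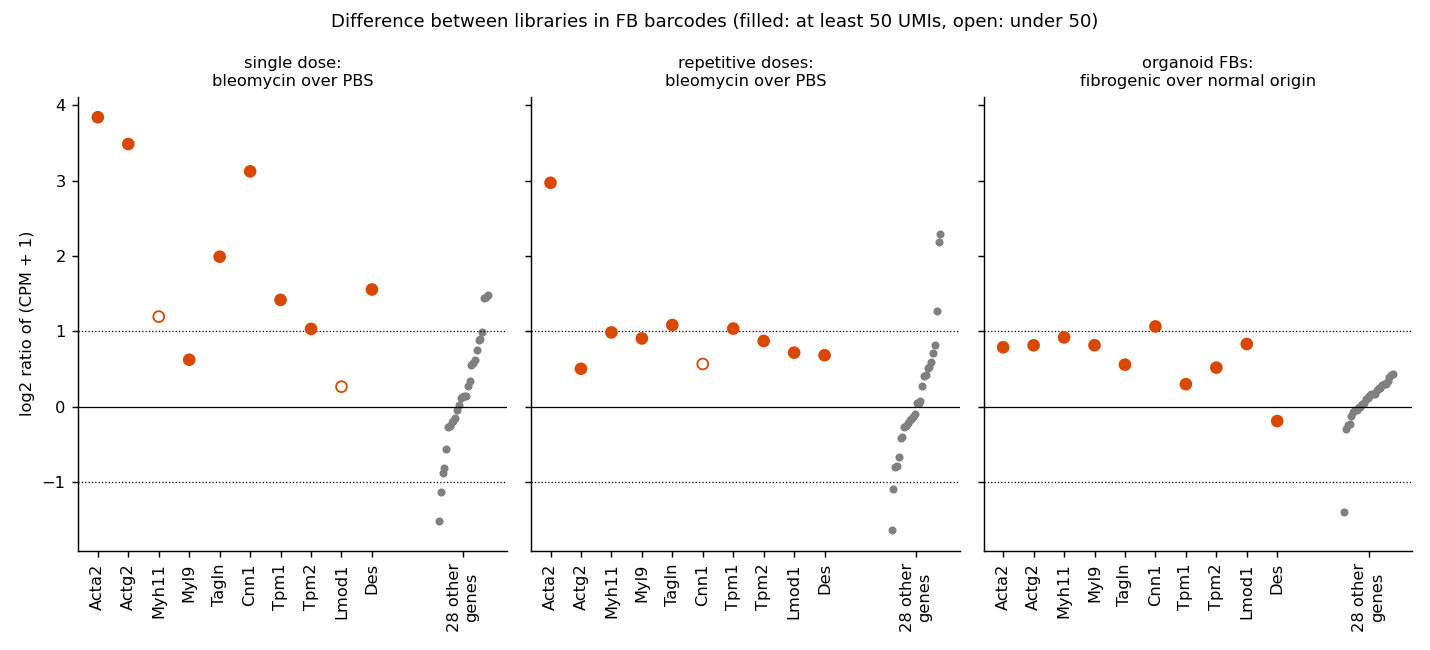
Log2 ratio of CPM + 1 for each member (orange, filled where both groups together had at least 50 UMIs) and for 28 other contractile and actin genes (grey, sorted) in the 3 comparisons of FB barcodes, with dotted lines at a 2-fold difference. Acta2 is the highest point in both lung panels, at 3.84 and 2.97, while the grey points lie on both sides of 0.

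A wider list of 28 contractile, actin-binding and regulatory genes lay on both sides of 0. After the single dose 3 of the 27 with enough UMIs were past 2-fold higher and 2 past 2-fold lower, against 8.03% and 3.57% of all genes compared, with a median of 0.14. After repetitive doses 3 of 28 were higher and 2 lower, against 7.01% and 1.8%, with a median of -0.02. In organoid FBs 0 of 28 were higher and 1 was lower, against 0.251% and 0.802%, with a median of 0.13. The medians of all genes compared were 0.08, 0.11 and -0.02 in the same order.

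Actn1 and Fhl2 were past 2-fold higher and Ppp1r14a and Itga8 past 2-fold lower in both lung arms. Actn1, an actin crosslinker, stood at 77.9 and 216 CPM in the single-dose arm (1.46) and at 66.5 and 162 CPM in the repetitive arm (1.27). The LIM protein gene Fhl2 was at 4.25 and 13.6 CPM (1.48) and at 1.44 and 10.2 CPM (2.19). Csrp2, another LIM protein gene, completed the top of the single-dose arm at 65.3 and 179 CPM (1.44). At the low end were Ppp1r14a, which encodes an inhibitor of myosin phosphatase, at 882 and 308 CPM (-1.52) and at 592 and 190 CPM (-1.63), and the integrin gene Itga8, at 347 and 158 CPM (-1.13) and at 1140 and 535 CPM (-1.09). Next to them were Zyx (zyxin) at -0.88 after the single dose and Vcl (vinculin) at -0.79 after repetitive doses.

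In organoid FBs the highest of the list were Zyx at 0.44, Fhl2 at 0.42 and the cytoplasmic actin gene Actg1 at 0.40. The lowest were Itga8 at -1.40, Ppp1r14a at -0.30 and Mylk, the myosin light chain kinase gene, at -0.24. Itga8 and Ppp1r14a were thus the lowest genes of the list in all 3 comparisons.

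The list also held the regulators of the program. Srf was at 35.9 and 24.1 CPM in the single-dose arm (-0.56) and at 10.9 and 8.0 CPM in the repetitive arm (-0.40). Mkl1 (Mrtfa) was at 6.04 and 9.87 CPM (0.63) and at 38.4 and 55.4 CPM (0.52). Mkl2 (Mrtfb) was at 12.6 and 12.8 CPM (0.02) and at 32.2 and 43.0 CPM (0.41). Myocd had 0 and 1 UMIs in the single-dose FBs and 4 and 253 UMIs in the repetitive FBs (2.29), the highest ratio of the list there, though it is also among the mural markers used to set barcodes apart. In organoid FBs these 4 genes were at 0.14, 0.11, -0.04 and -0.12.

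The members differed in which barcodes held them. In the single PBS library, the 18 mural-marked barcodes had 1.74% of all UMIs but 96.6% of those of Myh11, 94.6% of Cnn1, 75.0% of Actg2, 65.0% of Lmod1 and 61.6% of Acta2. For Tpm1, Des and Tpm2 they held 4.76%, 8.28% and 10.6%. After repetitive bleomycin, mural-marked barcodes had 2.57% of all UMIs, 69.0% of Cnn1, 63.6% of Actg2, 62.8% of Myh11 and 41.3% of Lmod1, against 21.7% of Acta2 and 2.58% of Tpm1. After single bleomycin the picture was different, since FB barcodes held 96.3% of the Acta2 UMIs, 96.1% of Cnn1 and 87.6% of Actg2.

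Much of the mural-marked signal of the single PBS library came from few barcodes, while after repetitive bleomycin it was spread over more. A single barcode of the single PBS library, with 0 Pdgfra UMIs, held 28 of the 29 Myh11 UMIs, 35 of 37 Cnn1 UMIs and 223 of 464 Acta2 UMIs. The barcodes with most Myh11 in the repetitive libraries also had 0 Pdgfra UMIs and held 48 of 163 and 72 of 782 Myh11 UMIs. After single bleomycin the leading barcode was called FB and held 8 of 23 Myh11 UMIs, with 0 Pdgfra and 251 Col1a1 UMIs.

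The mural gate was not clean. Mural-marked barcodes of the lung libraries summed to between 1506 and 2939 CPM over the 14 markers, with 11 to 14 of the 14 detected, but still held Pdgfra at 189 to 333 CPM. The mural-marked barcodes after repetitive PBS held more of the FB gene Dcn than the FBs did (7334 and 2115 CPM), and more of Col14a1 (472 and 123 CPM) and Pi16 (242 and 101 CPM), with the pericyte gene Rgs5 at 5.71 CPM. After repetitive bleomycin Dcn was likewise at 6110 and 3134 CPM. The part of such barcodes in the mural shares, and in the 8 members past 2-fold with mural-marked barcodes kept, was not tested. The smooth muscle genes Pln and Casq2 had 0 UMIs in them in 3 of the 4 libraries. FB barcodes summed to 123 and 171 CPM in the single-dose arm, 117 and 216 CPM in the repetitive arm and 96.4 and 92.4 CPM in the organoids over the same markers, with 11 to 14 detected, so this sum was higher with bleomycin in both lung arms. Casq2 was at 0 in FBs of both single-dose libraries, and Kcnmb1 and Myocd were at 0 in those after single PBS. Its part in the bleomycin differences was not tested. In FBs without a UMI of Myh11, Cnn1, Actg2 or Lmod1, a filter that itself uses members, the log2 ratio after the single dose was 3.17 for Acta2, 1.61 for Tagln and 0.19 for Myl9, and after repetitive doses 2.83, 0.85 and 0.74. In FBs with a Pdgfra UMI it was 3.67 and 2.94 for Acta2.

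**Figure D3:**
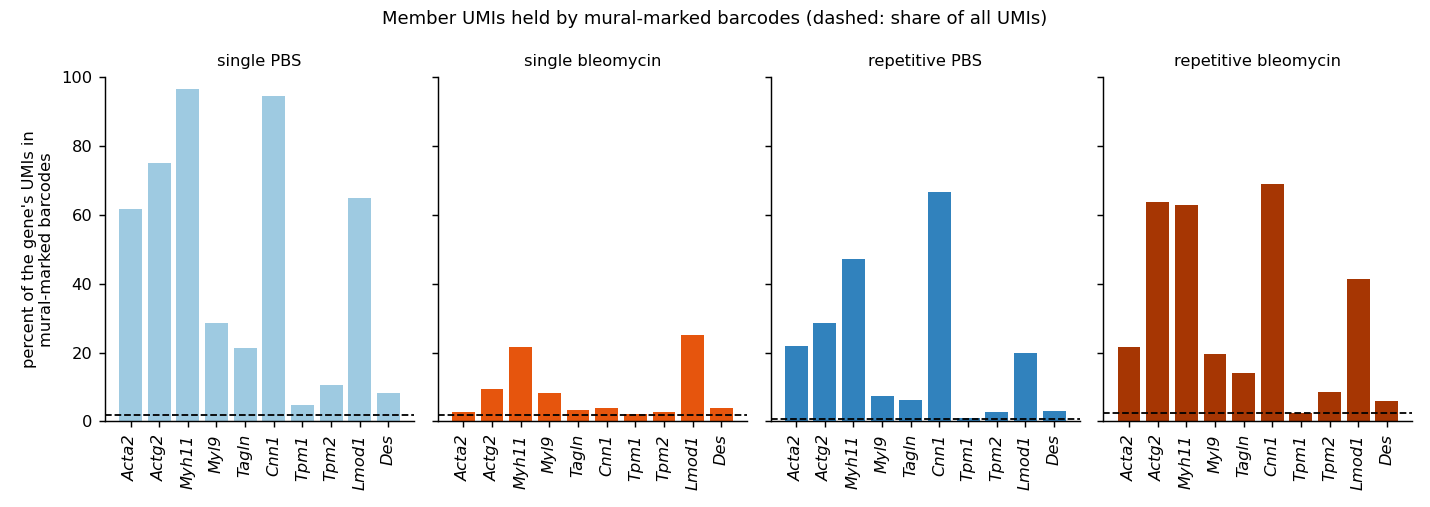
Percent of each member's UMIs that lay in mural-marked barcodes of the 4 lung libraries, with the share of all UMIs in those barcodes as a dashed line. In single PBS the bars of Myh11 and Cnn1 reach 96.6% and 94.6% and that of Tpm1 4.76%, and in single bleomycin the highest bar is Lmod1, at 25%.

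How many FB barcodes carried a member was compared after drawing 1000 UMIs from each, since depth differed. Acta2 was then found in 1.75% of FB barcodes (95% Clopper-Pearson interval 1.01 to 2.83) after single PBS and in 15.6% (13.2 to 18.2) after single bleomycin, or 8.11% and 55.2% at full depth. In the repetitive arm it was found in 0.83% (0.61 to 1.11) and 7.56% (6.98 to 8.18), or 7.29% and 22.6% at full depth. The immune barcodes of the same 4 libraries gave 2.13%, 0%, 0.41% and 5.14% on the thinned scale, and 6.38%, 11.9%, 2.02% and 10.3% at full depth, with median depths of 3267 to 5155 UMIs against 3850 to 11637 in FBs. The thinned shares of both PBS libraries lay inside the immune intervals (0.054 to 11.3 and 0.010 to 2.23), as did that of repetitive bleomycin (3.08 to 8.01). For single PBS the share is read as background. In the repetitive arm no difference from background was detectable on the thinned scale, while the FB levels of 14.8 and 123 CPM were above the immune 3.23 and 20.9 CPM.

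Tagln, Tpm1 and Des were found in more FBs than immune barcodes. Thinned, Tagln was found in 9.65% and 20.02% of FBs in the single-dose arm and in 7.25% and 10.1% in the repetitive arm, against at most 2.86% of immune barcodes. Tpm1 was found in 20.7% (18.1 to 23.5) and 38.4% (35.2 to 41.8), and in 19.5% (18.5 to 20.6) and 32.6% (31.6 to 33.7), with at most 8.96% of immune barcodes. Des was found in 6.47% and 10.7%, and in 3.68% and 5.18%, with 2.13%, 1.49%, 0.81% and 0.57% of immune barcodes. With 47 immune barcodes after single PBS, the immune interval there reached 11.3% for Tagln and Des and took in both FB shares. Myh11, Cnn1, Actg2 and Lmod1 were found in at most 0.52% of lung FBs at this depth, too few to compare.

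**Figure D4:**
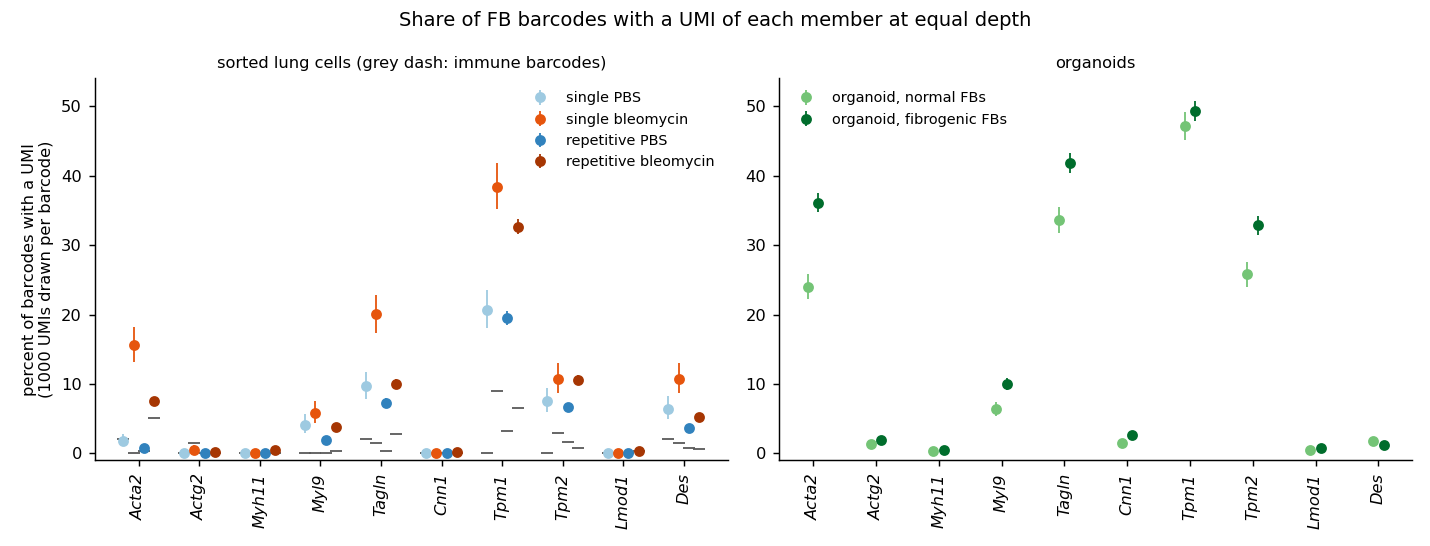
Percent of FB barcodes with at least 1 UMI of each member after 1000 UMIs were drawn from every barcode, with exact 95% intervals, in lung (left) and organoids (right), and with immune barcodes as grey dashes. Acta2 lies at 1.75% and 15.6% in the single-dose arm and at 24.0% and 36.1% in the organoids.

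Within the FBs Acta2 was spread unevenly. After single bleomycin the median FB barcode stood at 60.1 CPM, the 90th percentile at 681 CPM and the 99th at 3428 CPM, while after single PBS the 90th percentile was 0. The 1% of FB barcodes with the most Acta2 held 29.3% of its FB UMIs after single bleomycin, 44.0% after repetitive bleomycin and 53.5% and 55.03% in the PBS libraries. In organoid FBs they held 20.4% and 31.2%.

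The FBs were next divided by marker genes. Tcf21 marks alveolar FBs (LipoFBs among them), Pi16 adventitial FBs and Cthrc1 the matrix-producing FBs of fibrotic lung, and a barcode with at least 1 UMI was called positive. Cthrc1-positive barcodes numbered 2 and 153 in the single-dose arm, 16 and 426 in the repetitive arm and 1039 and 1747 in the organoids, so the PBS lungs had too few (under 50) to compare. Tcf21-positive barcodes numbered 732, 532, 4564, 3558, 956 and 1205, and Pi16-positive barcodes 155, 261, 694, 1970, 104 and 72. The gates overlap: 52.9% of Cthrc1-positive FBs after single bleomycin and 37.3% after repetitive bleomycin were also Tcf21-positive. Of Pi16-positive FBs, 71.0% after single PBS, 54.4% after single bleomycin, 75.8% after repetitive PBS and 43.5% after repetitive bleomycin were Tcf21-positive too. A barcode in both gates counts on both sides of a ratio between them. The intervals of such ratios take the counts as separate, so they are rough guides only.

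A gate of 1 UMI favours deep barcodes, and after single bleomycin the median depth was 15959 UMIs for Cthrc1-positive and 12770.5 for Tcf21-positive FBs. After repetitive bleomycin it was 10628.5 and 10013, against 3850 for all FBs. In the fibrogenic organoids it was 63203 and 72810, against 5798 for all FBs.

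In bleomycin lung, Cthrc1-positive FBs held more of most members than Tcf21-positive FBs of the same library. After single bleomycin 7 of 8 members compared were past 2-fold higher, against 2.03% of all genes compared, with a median log2 ratio of 1.42 over the 10. Acta2 was at 894 CPM in Cthrc1-positive and 300 CPM in Tcf21-positive FBs (2.98-fold, 2.81 to 3.16). Actg2 stood at 57.0 and 6.92 CPM (8.24-fold, 5.96 to 11.6) and Cnn1 at 33.3 and 4.98 CPM (6.69-fold, 4.5 to 10.1). Both rest on few barcodes, since 1 FB barcode held 47 of the 99 Cnn1 UMIs and 44 of the 170 Actg2 UMIs were in 1. Tagln, Des, Myl9 and Tpm2 were between 2.02-fold and 2.82-fold, and Tpm1 was 1.44-fold (1.37 to 1.51). Without the 2% of FBs with the most UMIs, 3 members were past 2-fold.

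After repetitive bleomycin 4 of 8 members compared were past 2-fold higher in Cthrc1-positive FBs, against 3.27% of all genes compared. They were Tagln (520 and 153 CPM, 3.39-fold), Acta2 (302 and 103 CPM, 2.93-fold), Tpm2 (262 and 114 CPM, 2.29-fold) and Des (116 and 55.4 CPM, 2.10-fold). Myl9 was 1.75-fold and Tpm1 1.36-fold higher. Lmod1 was at 4.52 and 2.48 CPM (26 and 99 UMIs), and Actg2, with too few UMIs to be called, at 2.96 and 0.78 CPM (17 and 31 UMIs). With the mean of single-barcode CPM, 2 members were past 2-fold. Myh11 had 6 and 69 UMIs, 1.04 and 1.73 CPM, with an interval of 0.21- to 1.38-fold.

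Cthrc1-positive FBs were 17.8% of FBs and 24.9% of FB UMIs after single bleomycin, and held 90.9% of the Cnn1 UMIs, 90.6% of Actg2 and 57.8% of Acta2, against 34.7% of Tpm1. The Cnn1 and Actg2 shares rest on few barcodes. Part of these UMIs also lay in Hhip-positive and Mki67-positive FBs, which are described below. After repetitive bleomycin they were 5.54% of FBs and 9.58% of FB UMIs, and held 26.1% of Tagln, 25.4% of Actg2 and 23.5% of Acta2, but 7.89% of Cnn1 and 3.23% of Myh11 (3 and 6 UMIs). Without them, the single-dose log2 ratio was 3.01 for Acta2, 1.41 for Tagln, 1.22 for Tpm1 and 1.09 for Des. It was 0.59 for Tpm2 and 0.14 for Myl9. On too few UMIs to be called, it was 0.99 for Actg2, 0.86 for Cnn1, 0.80 for Myh11 and -0.30 for Lmod1. The FBs left out had held 154 of the 170 Actg2 and 90 of the 99 Cnn1 UMIs after single bleomycin. The count of members past 2-fold was then 4, with no share of all genes taken without these FBs in either lung arm. In the repetitive arm without Cthrc1-positive FBs the count was 2, with Acta2 at 2.77 and Myh11 at 1.06. Tpm1 was then at 0.97 and Tagln at 0.80, both under 2-fold.

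The bleomycin difference in Acta2 was also seen inside the Tcf21-positive FBs. Acta2 stood at 27.2 CPM after single PBS and 300 CPM after single bleomycin (11.0-fold, 9.26 to 13.2), and at 14.3 and 103 CPM in the repetitive arm (7.20-fold, 6.65 to 7.79). In the single-dose arm 4 of 7 members compared were past 2-fold higher (Acta2, Actg2, Tagln and Tpm1), against 6.95% of all genes compared, and in the repetitive arm 2 of 9 (Acta2 and Tpm1), against 6.77%. Des, at 0.93, and Tpm2, at 0.83, stood just under 2-fold in the single-dose arm.

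Pi16-positive FBs held more Acta2 after bleomycin too. It stood at 37.96 and 286 CPM in the single-dose arm (7.54-fold, 5.53 to 10.53) and at 22.9 and 88.8 CPM in the repetitive arm (3.88-fold, 3.29 to 4.6). Tagln was 2.98-fold and 2.78-fold higher and Tpm1 2.74-fold and 1.6-fold. Myl9 was not: it stood at 74.1 and 60.1 CPM (0.81-fold, 0.62 to 1.06) and at 52.2 and 44.4 CPM (0.85-fold, 0.75 to 0.97).

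Within PBS lung, Pi16-positive FBs held more Myl9 and less Tagln and Des than Tcf21-positive FBs in the repetitive arm. Myl9 was at 52.2 and 18.5 CPM (2.82-fold, 2.5 to 3.18), the 1 of 8 members compared past 2-fold higher there, against 5.56% of all genes compared. Tagln was at 37.8 and 94.6 CPM (0.40-fold, 0.35 to 0.45) and Des at 19.2 and 42.7 CPM (0.45-fold, 0.38 to 0.54), the 2 past 2-fold lower, against 3.6%. After single PBS the direction was the same for Myl9 (1.72-fold, 1.32 to 2.23) and Des (0.65-fold, 0.47 to 0.88), but Tagln was level (0.97-fold, 0.80 to 1.16). No member was past 2-fold higher in Pi16-positive FBs after single PBS (0 of 6, background 2.7%), single bleomycin (0 of 7, 1.63%) or repetitive bleomycin (0 of 8, 3.11%). The count became 2 after single PBS with a gate of 2 UMIs, and 2 after repetitive bleomycin with mural-marked barcodes kept.

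The gates gave another order in organoids. In the normal organoids Cthrc1-positive FBs held 851 CPM of Acta2 and Tcf21-positive FBs 955 CPM (0.89-fold, 0.88 to 0.90), and 0 of 10 members were past 2-fold higher, against 0.168% of all genes compared. In the fibrogenic organoids all 10 members were lower in Cthrc1-positive FBs, with log2 ratios of -0.30 to -0.07, and again 0 were past 2-fold higher, against 0.123%. Cnn1 turned to 0.24 with barcodes positive for 1 gating gene only and to 0.01 without the 2% of FBs with the most UMIs. Since 47.1% and 42.0% of the Cthrc1-positive barcodes were also Tcf21-positive, the groups are not distinct.

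Pi16-positive organoid FBs were few and held less of most members. In the normal organoids, 104 such barcodes held all 10 members past 2-fold lower than Tcf21-positive FBs, against 1.87% of all genes compared, and 0 higher, against 1.45%. Actg2 was at -1.45, and at 1.71 in the 16 of these barcodes positive for 1 gating gene only. Setting the gate after thinning left 1 Pi16-positive barcode there and 2 in the fibrogenic organoids, too few to compare. Acta2 was at 236 and 955 CPM (0.25-fold, 0.24 to 0.26), Tagln at 479 and 1608 CPM, Tpm1 at 380 and 1162 CPM and Cnn1 at 2.43 and 35.0 CPM. In the fibrogenic organoids, 72 such barcodes held Acta2 at 736 and 1460 CPM (0.50-fold, 0.49 to 0.52). There 1 of 10 members, Myl9, was past 2-fold lower, against 0.566%, and 0 were higher, against 3.12%, while Myh11 was at 23.4 and 14.6 CPM (1.6-fold, 1.35 to 1.89). That value for Myh11 rested on few barcodes, since its log2 ratio was 0.65 with all Pi16-positive FBs and -1.04 without the 2% of FBs with the most UMIs. Inside the Pi16 gate, fibrogenic over normal origin gave 8 of 10 members past 2-fold higher, against 2.80% of all genes compared. Inside the Tcf21 gate it gave 0 of 10, against 0.266%.

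**Figure D5:**
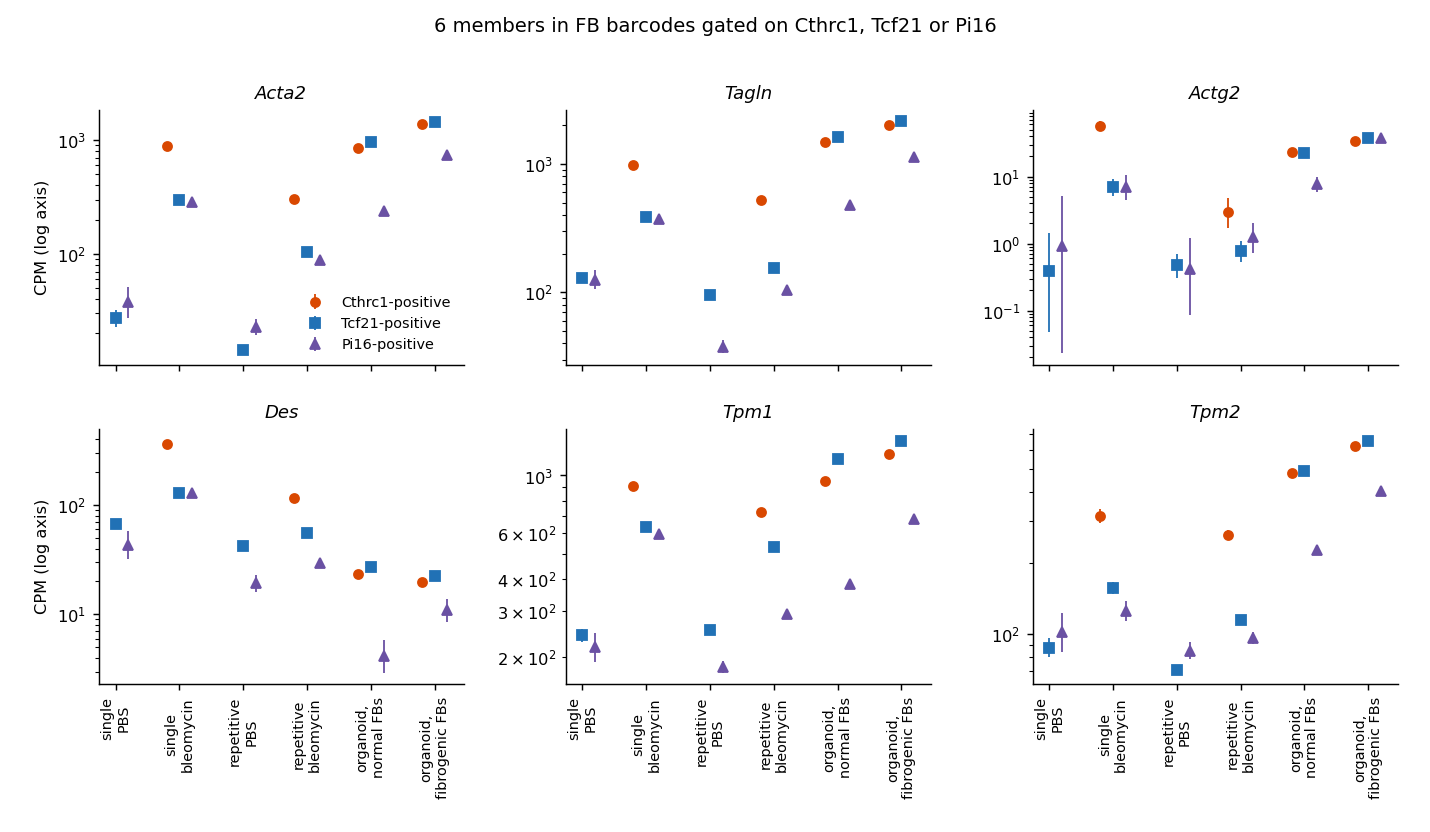
Level of 6 members in FB barcodes positive for Cthrc1, Tcf21 or Pi16 in the 6 libraries, in CPM on a log axis with exact 95% Poisson intervals, shown where the gate held at least 50 barcodes and the gene at least 1 UMI. In bleomycin lung the Cthrc1-positive points of Acta2 (894 and 302 CPM) lie above the Tcf21-positive points (300 and 103 CPM), and in organoids the order is turned.

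Further gates showed where else the members were held. Hhip, used as a marker of duct myofibroblasts, was found in 87, 334, 616 and 2651 FB barcodes of single PBS, single bleomycin, repetitive PBS and repetitive bleomycin. These held Acta2 at 26.6, 386, 16.9 and 97.8 CPM, beside 26.0, 385, 14.8 and 123 CPM in all FBs. The mural-marked barcodes, which were kept out of the FBs, held more Hhip than the FBs did. In the same order it stood at 685, 180, 489 and 387 CPM in them and at 25.2, 101, 27.1 and 209 CPM in FBs. The Hhip gate thus left out barcodes rich in Hhip, above all in PBS lung. For other members, Hhip-positive FBs after single bleomycin held 76.8% of the Cnn1, 41.2% of the Actg2 and 28.6% of the Myh11 UMIs, with 43.4% of FB UMIs. Barcodes with Mki67, a gene of cycling cells, numbered 64 after repetitive bleomycin and held Acta2 at 608 CPM, and were under 50 in the other lung libraries. After single bleomycin there were 25, with 5.51% of FB UMIs. They held 49.5% of the Cnn1, 32.9% of the Actg2, 20.2% of the Acta2 and 0% of the Myh11 UMIs. The Cnn1 and Actg2 shares of the Hhip and Mki67 gates rest on few barcodes. Of the FB UMIs, 1 barcode held 47 of 99 for Cnn1 and 1 held 44 of 170 for Actg2, while Myh11 had 14 in all. In organoid FBs the Mki67-positive barcodes numbered 403 and 590 and held 782 and 1417 CPM, beside 751 and 1299 CPM in all FBs.

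Against the FBs sorted from lung after the matching single dose, organoid FBs held 8 of 10 members past 2-fold higher when normal, against 23.9% of all genes compared, and 8 of 10 when fibrogenic, against 14.5%. Des was past 2-fold lower in both, against 12.6% and 11.5%. For the normal FBs the ratio to single PBS was 28.9-fold for Acta2 (24.7 to 34.0), 10.8-fold for Tagln, 4.99-fold for Tpm2 and 4.01-fold for Tpm1, and 0.33-fold for Des (0.30 to 0.37). For the fibrogenic FBs the ratio to single bleomycin was 3.37-fold for Acta2 (3.27 to 3.48), 3.98-fold for Tagln and 0.0968-fold for Des. Culture, preparation and library differ together between these groups and cannot be told apart.

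The AEC2-derived epithelial barcodes of the organoids held the members that many cell types share. Tpm1 was at 594 and 740 CPM and Tpm2 at 148 and 228 CPM in them, while Acta2 was at 21.7 and 30.8 CPM, Tagln at 85.8 and 90.9 CPM and Des at 0.26 and 0.60 CPM. On the thinned scale Acta2 was found in 24.0% (22.3 to 25.8) and 36.1% (34.7 to 37.4) of organoid FBs and in 1.64% and 4.43% of epithelial barcodes.

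Genes in neither list were ranked by how closely their level followed the mean of the 10 members over the 10 groups of lung library and gate with at least 50 barcodes, among 12979 genes. The closest were Glipr1 (Pearson r 0.99), Kif22 (0.98), Sec14l2 (0.97), Speg (0.97), which encodes a muscle protein kinase, and Tmem121 (0.97). Glipr1 ran from 0.40 CPM in Tcf21-positive FBs of repetitive PBS to 28.5 CPM in Cthrc1-positive FBs of single bleomycin, on 310 UMIs in all. Each member is itself a part of the mean, so its r with it is raised by that and cannot be set beside those of other genes. It was 0.96 for Actg2 and Acta2, 0.94 for Tpm2 and 0.92 for Tagln, and was lowest for Lmod1 (0.32) and Myh11 (0.34). The groups share libraries and barcodes, so these values describe these 10 groups only.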

How the data were processed

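Single-cell RNA-Seq libraries of GFP-positive lung cells and of organoids were made with 1 library per condition. The deposited tables hold raw counts of UMIs for each barcode, and the submitters' processing notes name Cell Ranger 3.0.1 and Seurat 3, with mm10 as the genome. The 10 members and all gene lists were chosen with earlier results of these data known.

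Barcodes with at least 1000 UMIs and at most 25% mitochondrial UMIs were kept. A class needed its markers at 0.1% of UMIs or more and at least 2/3 of all class marker UMIs. Barcodes of mixed classes were set aside, which was also how doublets were treated. Mural-marked barcodes had at least 2 mural markers at 0.1% or more. Levels were summed UMIs scaled to CPM (1000000 UMIs in all). Ratios used log2(CPM + 1), so they understate differences of low genes, and calls needed 50 UMIs over both groups and a 2-fold difference. With 1 library per condition no test was made. Intervals are exact Poisson or Clopper-Pearson at 95% and cover counting error only, since the variation between animals was not measured. Gates needed 1 UMI of the gating gene and, outside alternative settings, 50 barcodes. Shares were compared after thinning to 1000 UMIs (seed 1). All members were named. Of the 28 other genes, the 3 highest and 3 lowest ratios per comparison were named, with Srf, Mkl1, Mkl2 and Myocd always, and then the 5 genes nearest in pattern. The ratio code was checked on simulated data. Python 3.11.15, numpy 2.4.6, scipy 1.17.1, pandas 2.3.3 and matplotlib 3.10.9 were used.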

Additional observations from a re-analysis of the deposited data

Results flagged for a closer look

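Des stood out because its difference with bleomycin had opposite directions in lung and in culture. The log2 ratio of FBs was 1.56 after a single dose and -0.19 between organoid FBs of fibrogenic and normal origin, the last of which was 0.09 when all barcodes were summed. In organoid FBs without a UMI of Myh11, Cnn1, Actg2 or Lmod1 it was -0.92. A single fibrogenic FB barcode held 690 of the 3183 Des UMIs. Each value rests on 1 library per condition, and the difference between them was not tested.

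The comparison of Cthrc1-positive with Tcf21-positive FBs had log2 ratios of opposite sign in single-dose bleomycin lung and in normal organoids for 8 members, and for 6 of these both counting intervals lay off 1 with at least 50 UMIs on each side. The 2 gates share barcodes, so these intervals count some UMIs on both sides and do not measure how sure a direction is. The log2 ratio was 1.57 and -0.17 for Acta2, 1.35 and -0.11 for Tagln, and 1.14 and -0.32 for Myl9. It was 1.49 and -0.20 for Des, 0.52 and -0.28 for Tpm1, and 1.01 and -0.03 for Tpm2. The other 2 were Cnn1, at 2.52 and -0.02 with an organoid interval that held 1, and Lmod1, at 1.07 and -0.22 with too few UMIs in the lung. In normal organoids Tpm2 turned to 0.009 with barcodes positive for 1 gating gene only and to 0.012 with the mean of single-barcode CPM, and Des to 0.025 with the gate set after thinning (45 Tcf21-positive barcodes), so the opposite direction did not hold for them in these settings. None of these differences between lung and culture was tested, and there was 1 library on each side.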

How the results depend on the processing

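With 1 library per condition no replicate could be left out. No paired analysis was possible because no condition had replicates that shared a number. No share of all genes was taken under the alternative settings, so the counts below cannot be set beside one. Of 122 counts of members past 2-fold under alternative settings, 100 stayed within 1.5 times the reported count. Many of these were counts of 0 that stayed 0, and a drop from 7 to 5 also falls within this rule. Of 122 medians 66 shifted by 0.1 or more on the log2 scale, and 527 of 1208 ratios of single members lay outside the counting interval of the reported setting. These intervals were taken without the added 1 CPM, so some reported ratios of low genes lie outside them too. After repetitive doses Cnn1 was at 0.57, with a log2 interval of 1.38 to 4.17. The 527 thus include ratios that changed little. The median for Cthrc1-positive over Tcf21-positive FBs, 1.42 after single bleomycin and 0.93 after repetitive bleomycin, ran from 1.06 to 1.84 and from 0.52 to 1.22 over the settings that left at least 50 barcodes in each gate. That for Pi16-positive over Tcf21-positive FBs then ran from -1.12 to -0.65 in fibrogenic organoids, -2.29 to -1.49 in normal organoids, -1.12 to -0.05 after single bleomycin and 0 to 0.86 after single PBS. It took both signs in the repetitive arm, from -0.30 to 0.21 after PBS and from -0.12 to 0.34 after bleomycin. Of 80 gate settings 10 left fewer than 50 barcodes in a gate, and their values stand in the counts given here. Under them the median after single PBS was -0.32 with the 45 barcodes positive for 1 gating gene only. After a single dose the 7 members became 4 without Cthrc1-positive FBs, 6 when centred on the median gene and 8 with no filter on low counts. They became 5 with a pseudocount of 10 CPM, with mural-marked barcodes kept and with all barcodes. The count was also 5 with the mean of single-barcode CPM and without the 2% of FBs with the most UMIs. After repetitive doses the 3 became 6 with a pseudocount of 0.1 CPM, 8 with mural-marked barcodes kept, 7 with all barcodes and 1 when centred on the median gene. In organoid FBs the 1 became 2 with a pseudocount of 0.1, 0 with a pseudocount of 10, 2 with mural-marked barcodes kept, 6 with all barcodes, 0 with the mean of single-barcode CPM, 0 without the 2% of FBs with the most UMIs and 3 without Cthrc1-positive FBs.

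For Cthrc1-positive over Tcf21-positive FBs, the 7 after single bleomycin became 3 without the 2% of FBs with the most UMIs, and the 4 after repetitive bleomycin became 2 with the mean of single-barcode CPM. For Pi16-positive over Tcf21-positive FBs, the 0 after single PBS became 2 with a gate of 2 UMIs and 1 with the gate set after thinning. The 1 after repetitive PBS became 2 with a pseudocount of 0.1 and 2 with the mean of single-barcode CPM. The 0 after repetitive bleomycin became 1 with barcodes positive for 1 gating gene, 2 with mural-marked barcodes kept and 1 with a pseudocount of 0.1, and the 0 in normal organoids became 1 with the 16 barcodes positive for 1 gating gene.

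Of 1208 log2 ratios of single members, 66 changed sign, 58 of them between gates and 63 where the reported ratio was under 2-fold. In lung, bleomycin over PBS changed sign for Lmod1 and Myh11 after the single dose and for no other member. Of the 66 turns 10 came from gates of fewer than 50 barcodes. In organoid FBs, Des went from -0.19 to 0.09 with all barcodes and Tpm1 from 0.30 to -0.01 with the mean of single-barcode CPM. Acta2 in Pi16-positive over Tcf21-positive FBs after single PBS went from 0.46 to -1.59 with the gate set after thinning, to -1.57 with barcodes positive for 1 gating gene only and to -0.66 without the 2% of FBs with the most UMIs. Myh11 after a single dose went from 1.20 to -1.02 with mural-marked barcodes kept and to -0.78 with all barcodes. Its Cthrc1-positive over Tcf21-positive ratio after single bleomycin went from 1.49 to 0 with the gate set after thinning (41 barcodes). Actg2 in Pi16-positive over Tcf21-positive FBs of normal organoids went from -1.45 to 1.71 with the same 16 barcodes. The causes were not tested. The settings without Cthrc1-positive FBs, with a Pdgfra UMI, without a UMI of Myh11, Cnn1, Actg2 or Lmod1, and with at least 5000 UMIs were chosen after seeing the data. Low counts of Myh11, Lmod1, Cnn1 and Actg2 in lung FBs limit what could be compared for them.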
